A study of Homo sapiens with 10 samples.

Results

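Gene cluster 29063's 2 transcripts, identified in the files as uc003zbt.4 and uc003zbu.4, were singled out because their summed level in the SAM libraries stood above that of every other library, and the cluster is named the SAM-high cluster hereafter. It is described here with cluster 29064, a single transcript (uc003zbv.3) listed directly after it, which may share reads with it. These are 2 of the 31848 gene clusters listed, and both were among the 13241 with enough counts to be tested. The SAM-high cluster was chosen by its values in SAM against the other groups, so its level and its differences are a description, without a test. Cluster 29064 was taken by its place in the list, and its differences from the control were tested. The files do not pair clusters with gene names. None of the 3 transcript identifiers of the pair was found in the name tables at hand, so no gene name, position or sequence is given.

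The libraries are poly(A) RNA from the human embryonic kidney line HEK293T. All cells were transfected, by a lipid reagent, with a guide RNA that targets the fetal globin gene HBG1. There were 5 groups of 2 libraries: a guide-only control, and cells that also received dead-Cas9 activators named VP64, VPR, SAM or Suntag. The labels do not say whether the libraries of a group came from separate cultures, so the spread between them may be technical. HEK293T markers could not be checked, because clusters carry no names.

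A dead-Cas9 activator binds DNA where its guide directs it and brings activation domains to that site, which recruit the transcription machinery. VP64 is a repeat of a viral activation domain, and VPR adds the domains of p65 and Rta to it. Suntag recruits copies of VP64 through a chain of peptide epitopes. SAM recruits, through RNA hairpins in its guide, an effector that carries activation domains of the human proteins p65 and HSF1, the latter the main regulator of heat-shock genes. Plasmids that encode such domains can give RNA that matches a human gene. Each activator was present in its own group only, so RNA from plasmids and RNA from the cells' own genes cannot be told apart in these tables. Whether the SAM-high cluster is the gene of an effector protein was not tested.

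Libraries held 3316534 to 7447949 expected counts. An expected count is the counting program's estimate of the reads of a cluster, and it can be fractional where reads match more than 1 cluster. The libraries of each group differed by more than counting error, since the mean chi-square of a cluster between them was at least 1.70. In SAM against the control, 5.2% of tested clusters were called by edgeR's quasi-likelihood test at an adjusted p under 0.05.

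The SAM-high cluster held 2055 and 2195 expected counts in the SAM libraries. It held 529 and 774 in the control, 582 and 335 in VP64, 586 and 797 in VPR, and 624 and 782 in Suntag. Both SAM libraries thus held more counts than any of the other 8, although SAM replicate 1 was among the shallower libraries.

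Scaled to the library's summed expected counts (CPM), the level was 598 in SAM replicate 1 and 495 in SAM replicate 2. The control stood at 113 and 127 CPM. Suntag stood at 109 and 140 CPM, VPR at 116 and 107 CPM, and VP64 at 109 and 101 CPM. The lower SAM library was 3.53-fold above the highest library of any other group, which was Suntag replicate 2. SAM did not overlap the other groups, which is how the cluster was chosen.

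Ordered by mean level, SAM came first with 547 ± 73.2 CPM, followed by Suntag with 124 ± 22.1 CPM and the control with 120 ± 9.85 CPM (SD, n = 2 each). VPR with 111 ± 6.38 CPM and VP64 with 105 ± 5.51 CPM came last (SD, n = 2 each). From Suntag downwards, each group's libraries overlapped those of the next group in this order, so the order of the lower 4 does not exceed their spread. Both libraries of VPR lay below the control mean.

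**Figure D1:**
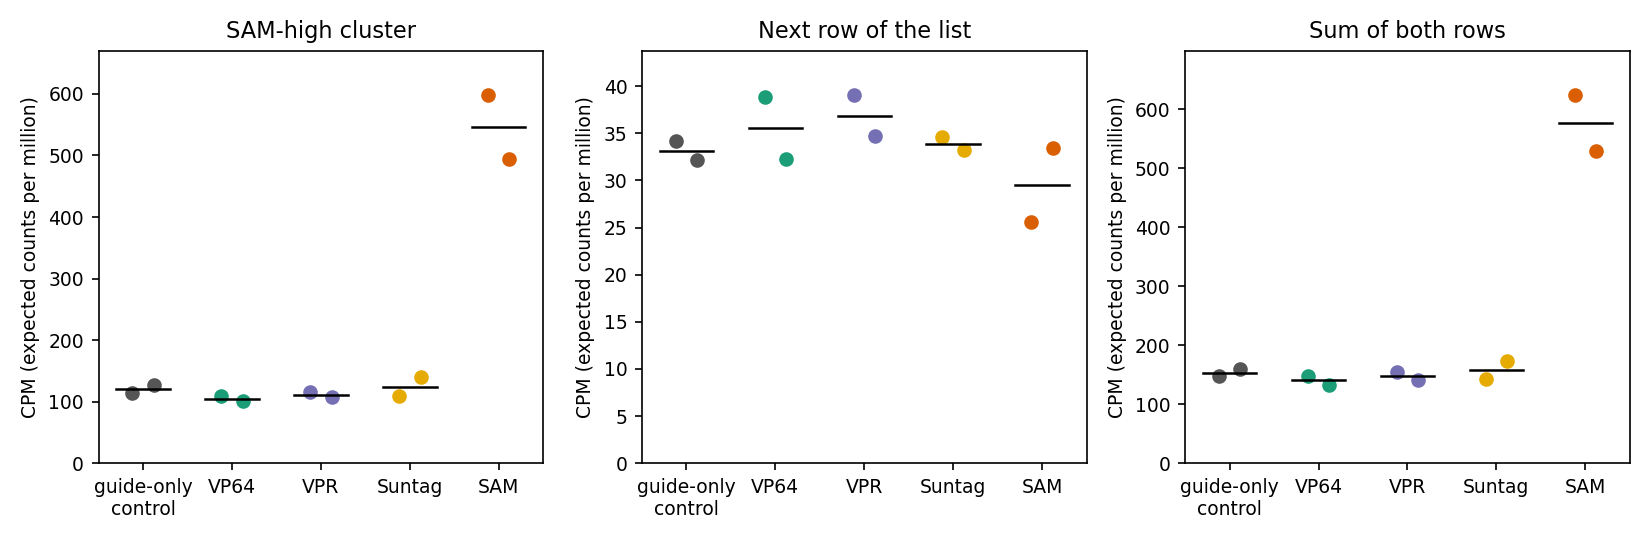
Level of the SAM-high cluster, of the next row of the list (cluster 29064) and of their sum in each library, in CPM on a linear axis from 0; points are libraries, lines are means of 2. The SAM libraries stand at 495 and 598 CPM for the SAM-high cluster, above the other 8, while for the next row SAM replicate 2 lies among the other groups and SAM replicate 1 below them.

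Summed over its libraries, SAM held 4250 counts of the SAM-high cluster against 1302 in the control, a ratio of 4.45 per library total (95% exact interval 4.18 to 4.74). The ratio to VP64 was 5.10 (4.75 to 5.49), to VPR 4.88 (4.595 to 5.19) and to Suntag 4.35 (4.09 to 4.62). These intervals cover counting error only. The fitted log2 difference of SAM from the control was 2.15 ± 0.11 (SE). The same fit gave -0.14 ± 0.12 for VP64, -0.04 ± 0.12 for VPR and 0.08 ± 0.12 for Suntag against the same control libraries.

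The libraries of SAM also differed from each other. Per library total, SAM replicate 1 held 1.21 times as much of the SAM-high cluster as replicate 2 (95% exact interval 1.14 to 1.28). The difference between the Suntag libraries was of similar size, with replicate 1 at 0.777 of replicate 2 (0.698 to 0.864). Both are small beside the distance of SAM from the rest.

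Among all 13241 tested clusters the median log2 difference of SAM from the control was 0.01. A larger log2 difference than that of the SAM-high cluster was fitted for 55 clusters. Their median level over the 10 libraries was 1.36 CPM, so most were rare RNAs. Only 1 of these 55 reached a mean of 100 CPM, a level that 1999 tested clusters reached and at which the SAM-high cluster stood with 202 CPM. In added CPM, the mean of SAM exceeded that of the control by 426 CPM, which placed the SAM-high cluster at rank 8 of the tested clusters. The 7 with a larger gain had log2 differences of 0.10 to 0.57, so they were already abundant in the control.

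**Figure D2:**
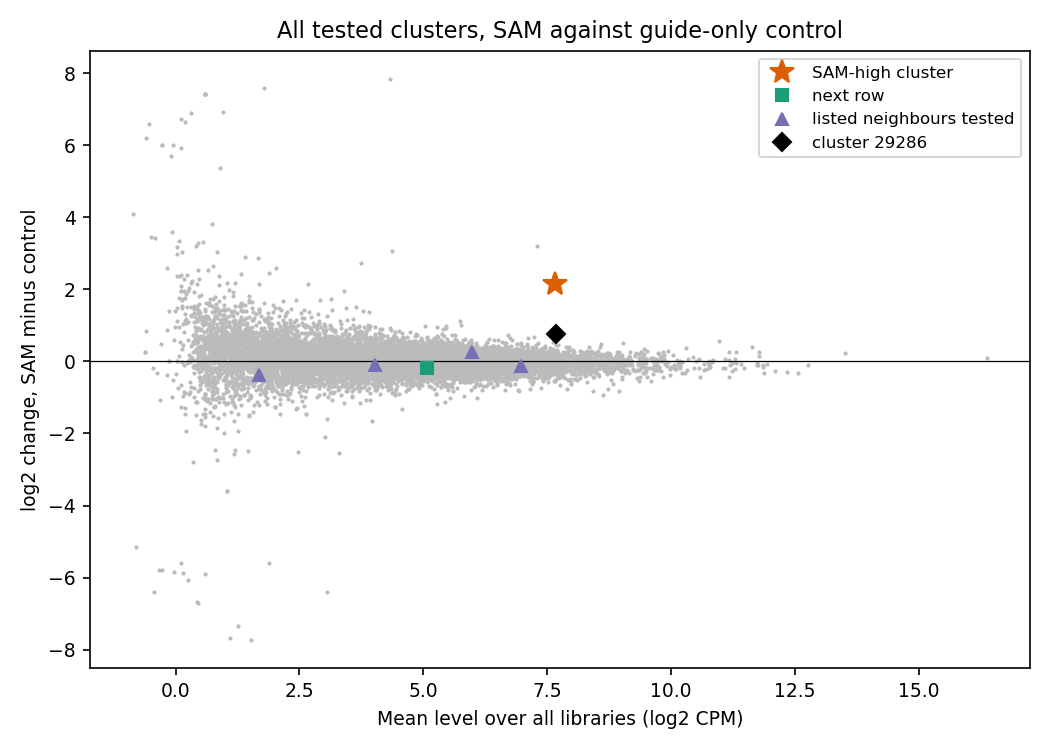
Fitted log2 difference of SAM from the guide-only control against the mean level over the 10 libraries (log2 CPM) for the 13241 tested clusters, shown as grey points. The SAM-high cluster (star) lies at 2.15, the next row (square) at -0.17, cluster 29286 (diamond) at 0.75, and the 4 tested listed neighbours (triangles) lie between -0.37 and 0.27.

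Levels per transcript length are computed from the same expected counts, so their likeness to CPM is not separate evidence. In TPM, RSEM's abundance of transcripts, which divides counts by effective transcript length and scales each library to 1 sum, the SAM-high cluster stood at 609 and 490 in SAM and at 115 and 130 in the control. VP64 stood at 107 and 97.9 TPM, VPR at 108 and 102 TPM, and Suntag at 105 and 139 TPM. The ratio of the means of SAM and control was 4.49 in TPM and 4.54 in CPM. By TPM the cluster ranked 202 and 262 among the clusters of the SAM libraries. In the other 8 libraries it ranked between 1191 and 1654, with a median rank of 1477.

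In cluster 29064, neither SAM library stood above the range of the control. It held 88 and 148 expected counts in SAM, 159 and 195 in the control, 208 and 107 in VP64, 197 and 258 in VPR, and 198 and 185 in Suntag. This came to 25.6 and 33.4 CPM in SAM, against 34.2 and 32.2 CPM in the control. The values were 38.8 and 32.3 CPM in VP64, 39.1 and 34.7 CPM in VPR, and 34.6 and 33.2 CPM in Suntag. SAM replicate 1 was the lowest of the 10 libraries, and SAM replicate 2 lay within the range of the control.

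Against the control, the log2 difference of cluster 29064 was -0.17 ± 0.15 in SAM (SE, edgeR adjusted p = 0.548), with a 95% interval of -0.49 to 0.15. It was 0.19 ± 0.14 in VP64 (edgeR adjusted p = 0.611, interval -0.12 to 0.49). It was 0.22 ± 0.14 in VPR (edgeR adjusted p = 0.372, interval -0.07 to 0.52). In Suntag it was 0.07 ± 0.14 (edgeR adjusted p = 0.867, interval -0.23 to 0.37). The cluster was thus called in 0 of 4 comparisons by edgeR, in 0 at an unadjusted p under 0.05, and in 0 by DESeq2, which gave no adjusted p in VP64 and Suntag. By edgeR, the shares of all tested clusters called were 5.2% in SAM, 0.816% in VP64, 6.6% in VPR and 1.33% in Suntag. At an unadjusted p under 0.05 the shares were 21.4%, 14.4%, 22% and 15.6%. DESeq2 called 5.25%, 2.94%, 9.7% and 5.85% of the clusters to which it gave an adjusted p. The intervals against the control reach from -0.49 to 0.52 over the 4 comparisons, and differences from the control within each interval were not excluded. As cluster 29064 may share reads with the SAM-high cluster, these tests may not be independent of the values by which that cluster was chosen. The value in SAM rested on replicate 1: the log2 difference was -0.00 without SAM replicate 1 and -0.41 without SAM replicate 2, and neither fit called it.

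The counts of cluster 29064 may depend on reads shared with the SAM-high cluster, which was chosen for its level in SAM. Set against the other activators, a comparison added after the values were seen, cluster 29064 had a lower fitted level in SAM. The log2 difference was -0.36 from VP64 (95% interval -0.69 to -0.03, edgeR adjusted p = 0.187) and -0.40 from VPR (-0.71 to -0.09, edgeR adjusted p = 0.121). From Suntag it was -0.24 (-0.56 to 0.07, edgeR adjusted p = 0.406). The first 2 intervals exclude 0, but none of the 3 differences was called after adjustment over all tested clusters, of which 4.29%, 5.68% and 1.72% were called. Without SAM replicate 1 the differences were -0.19 from VP64, -0.23 from VPR and -0.07 from Suntag, and all 3 intervals included 0. Without VP64 replicate 1 the difference from VP64 was -0.20 (-0.63 to 0.22), and without VPR replicate 1 that from VPR was -0.32 (-0.67 to 0.04).

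**Figure D3:**
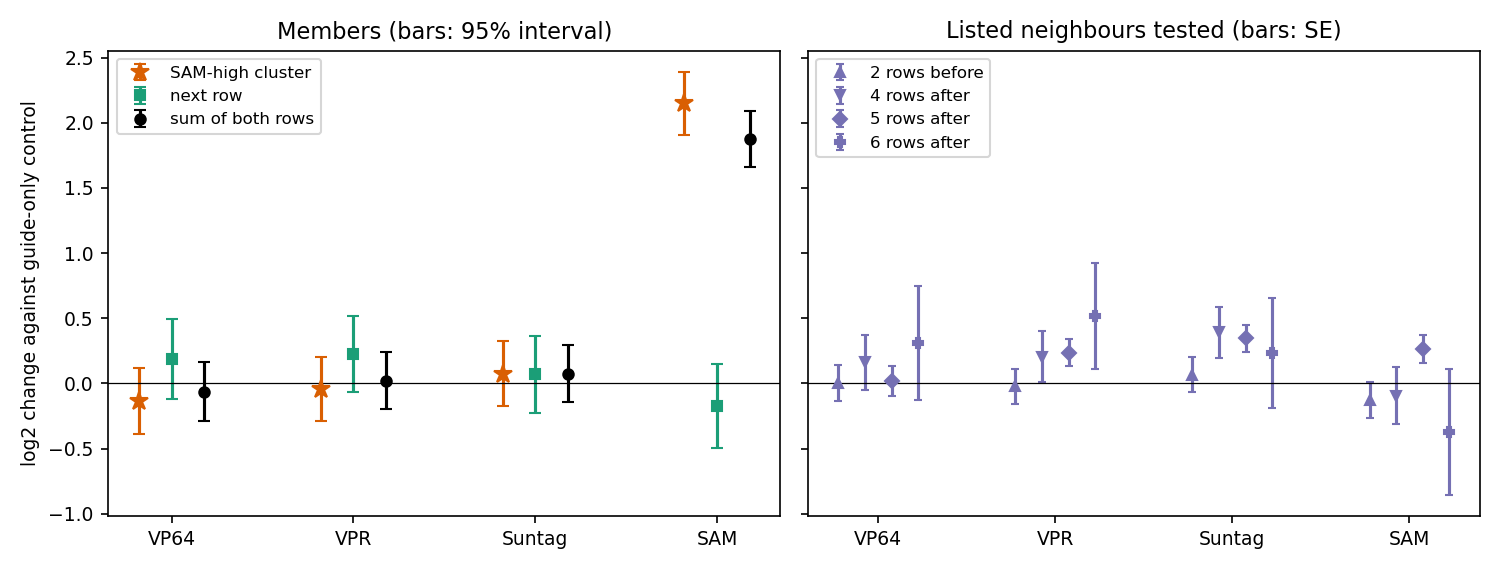
Fitted log2 difference of each activator group from the guide-only control. Left, the SAM-high cluster, the next row (cluster 29064) and their sum, with 95% intervals; right, the 4 tested listed neighbours, with SE. In SAM, the SAM-high cluster and the sum lie at 2.15 and 1.88, and the other values shown lie between -0.37 and 0.52.

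Per length, the distance between both clusters was wide. Cluster 29064 stood at 14.8 and 18.8 TPM in SAM and at 19.5 and 18.6 TPM in the control. In the other libraries it stood at 21.7 and 17.7 TPM in VP64, 20.6 and 18.7 TPM in VPR, and 19.1 and 18.8 TPM in Suntag. The SAM-high cluster was 41.2 and 26.0 times as abundant as cluster 29064 in the SAM libraries, by TPM. The same ratio ran from 4.93 to 7.40 in the other 8 libraries.

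Where a read matches more than 1 cluster, the counting program divides it between them by its own estimates, which leaves fractional counts. The counts of cluster 29064 may therefore not be independent of those of the SAM-high cluster. The counts of the SAM-high cluster were not whole in 9 of 10 libraries, where whole means within 0.01. Added to those of cluster 29064 they gave a whole number in 6 of these 9. No other cluster of the list did so more often, and the highest number for any other cluster was 4. In VP64 replicate 2 the counts of the SAM-high cluster were whole without the addition. The sum stayed off a whole number by 0.22 and 0.11 in the SAM libraries and by 0.05 in control replicate 1. Since the sum was not whole there, further clusters may hold some of the reads of the pair in SAM, and which ones was not settled. No single further cluster made the sum whole in all 3 of these libraries, and 2 clusters did so in both SAM libraries. All clusters were searched, and how many would do so by coincidence was not computed.

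The share of the pair's counts that went to cluster 29064 was 4.11% in SAM replicate 1 (95% Wilson interval 3.35 to 5.03) and 6.33% in replicate 2 (5.40 to 7.37). In the control it was 23.2% (20.1 to 26.4) and 20.2% (17.7 to 22.8). It was 26.3% and 24.2% in VP64, 25.2% and 24.5% in VPR, and 24.1% and 19.2% in Suntag. The SAM libraries lay below all others, since the counts of the SAM-high cluster were higher there and those of cluster 29064 were not.

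Summed over the pair, where a division between both rows cancels, the level was 624 and 528 CPM in SAM. It was 148 and 160 CPM in the control, 148 and 133 CPM in VP64, 155 and 142 CPM in VPR, and 143 and 173 CPM in Suntag. SAM did not overlap the other groups for the sum either, with the lower SAM library 3.05-fold above the highest other library. Most of the sum is the cluster chosen for its level in SAM. Summed counts were 4486 in SAM and 1657 in the control, a ratio of 3.69 (95% exact interval 3.49 to 3.91). The fitted log2 difference from the control was 1.88 ± 0.10 in SAM, -0.06 ± 0.11 in VP64, 0.02 ± 0.10 in VPR and 0.07 ± 0.10 in Suntag (SE).

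Counts listed under cluster 29064 may belong in part to the SAM-high cluster. If all counts of cluster 29064 belonged to the SAM-high cluster in the control and none did in SAM, the ratio of mean CPM would be 3.56. With the opposite assignment it would be 4.78. Neither value covers reads listed under the SAM-high cluster that belong to cluster 29064 or to further clusters, and the ratio of the SAM-high cluster alone has no bound from these tables in that direction.

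**Figure D4:**
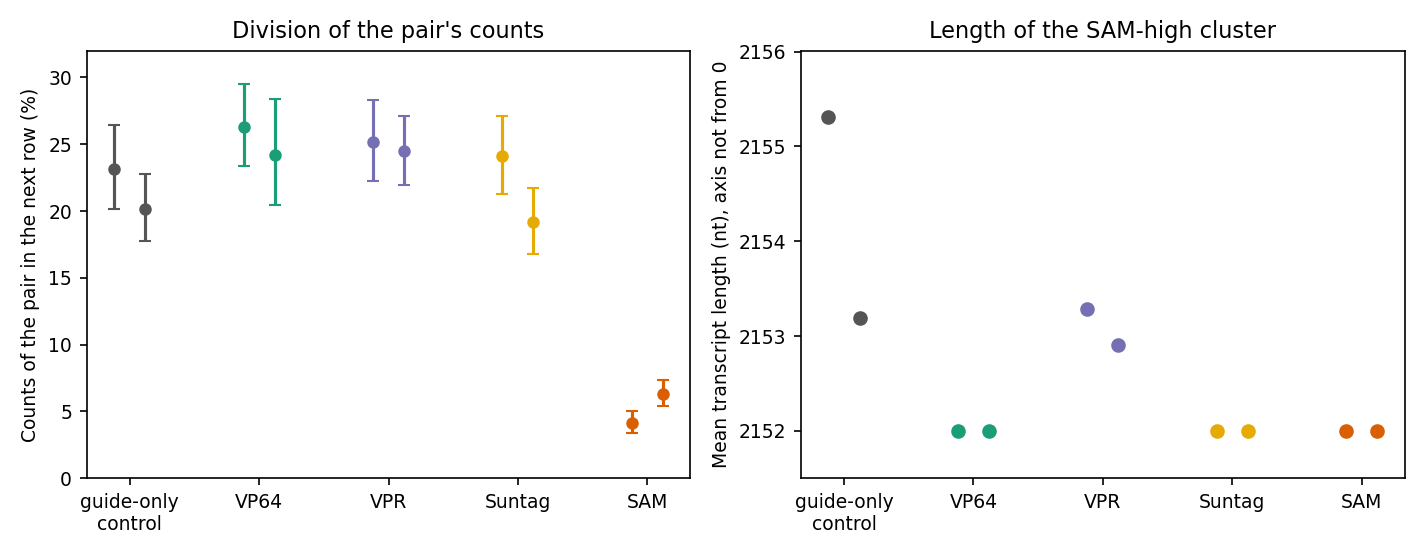
Left, share of the pair's expected counts assigned to the next row (cluster 29064) in each library, with 95% Wilson intervals; the SAM libraries lie at 4.11% and 6.33%, the others at 19.2% to 26.3%. Right, mean transcript length of the SAM-high cluster in each library on an axis that does not start at 0, at 2152 nt in 6 libraries and up to 2155.31 nt in control replicate 1.

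The deposited lengths show how the reads of the SAM-high cluster were assigned to its 2 transcripts, since the program averages their lengths by abundance. The length was 2152 nt, to 2 decimals, in both libraries of SAM, VP64 and Suntag. It was 2155.31 and 2153.19 nt in the control and 2153.28 and 2152.9 nt in VPR. In the former 6 libraries, SAM included, virtually all of the estimated abundance was therefore given to a transcript of 2152 nt, and in the control and VPR some went to a longer one. How much was not computed, since the tables give lengths only as averages over a cluster. VP64 and Suntag had the same length as SAM at levels near that of the control. Whether the length is related to the level was not tested. Cluster 29064 was 3705 nt long in all 10 libraries.

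Fragment length differed between groups. The mean fragment length, taken as transcript length less effective length, was 116 and 97.5 nt in SAM and 133 and 129 nt in the control. It ran from 89.8 to 123 nt in the other 6 libraries. Its part in the difference between SAM and the control was not tested.

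Of the 10 rows listed around the pair, 5 before and 5 after, 6 had too few counts to be tested, with at most 6.92 in any library, and 4 were tested. Against the control, edgeR called 0 of these 4 in SAM, VP64, VPR and Suntag, and DESeq2 called 0 of those to which it gave an adjusted p. Over all tested clusters edgeR called 5.2%, 0.816%, 6.6% and 1.33%, so 0 of 4 is near that background. At an unadjusted p under 0.05 there were 1 in SAM, 0 in VP64, 1 in VPR and 1 in Suntag, beside 21.4%, 14.4%, 22% and 15.6% of all tested clusters. In SAM, VPR and Suntag this was the same row, of 1890 nt. Its log2 difference was 0.27 ± 0.11 in SAM, 0.24 ± 0.11 in VPR and 0.35 ± 0.11 in Suntag (SE). In VP64 that row stood at 0.02 ± 0.11 (SE). The median log2 difference of the 4 was -0.11 in SAM, 0.09 in VP64, 0.22 in VPR and 0.29 in Suntag, beside medians of 0.01, -0.00, -0.02 and 0.00 over all tested clusters. Their range in SAM was -0.37 to 0.27. The nearest tested row before the pair, of 2373 nt, was about as abundant as the SAM-high cluster in the control. It stood at 133 and 110 CPM in SAM and at 116 and 142 CPM in the control, a log2 difference of -0.13 ± 0.14 (SE, edgeR adjusted p = 0.653). The files do not state what their order stands for, so these rows are neighbours in the list only.

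Cluster 29286 was the most alike by the rule used, the highest Pearson correlation with the SAM-high cluster of log2(CPM + 1) over the 10 libraries among 9758 clusters with a mean of at least 10 CPM. It has 3 transcripts. It stood at 314 and 293 CPM in SAM and at 166 and 187 CPM in the control. In the 8 libraries outside SAM it ran from 166 to 187 CPM, with a median of 184, below both SAM libraries. It was picked by likeness to a cluster high in SAM, so this gap largely follows from that choice. Its mean in SAM was 1.72-fold that in the control, against 4.54-fold for the SAM-high cluster. The correlation was 0.98 over 10 libraries and 0.01 over the 8 outside SAM, so it rests on the SAM libraries. By Spearman's rho the cluster reached 0.44. By that measure 2613 of the 9758 clusters were more like the SAM-high cluster than it was, and 2 of them shared the highest value of 0.95, so the choice of cluster 29286 rests on the measure. The points share library depth and composition, and cluster 29286 was picked as the top of many, so the likeness is a description. The correlation of cluster 29064 with the SAM-high cluster over the same libraries was -0.67, and both rows may share reads.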

How the data were processed

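The members and lists were chosen with earlier results of these data known. Per the submitters' processing notes, the authors used RSEM 1.2.1 and the hg19 build. As to transcript annotation, it was not given in the sources used here. The authors deposited, per the file headers, an expected count per gene cluster (RSEM's estimated count), a TPM scaled by effective length within the library, and both lengths. Per the labels' protocols, random hexamers and tagmentation were used, which do not mark strand, so overlapping and antisense genes cannot be told apart.

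Rounded expected counts entered edgeR 4.0.16 under R 4.3.3, with filterByExpr, TMM scaling and a quasi-likelihood F test. All 10 libraries were fitted together, which left 5 residual degrees of freedom, and p-values were adjusted by Benjamini-Hochberg over 13241 clusters per comparison, at 0.05. SE is the log2 difference over the square root of F. For the sum, both rows were replaced by it. Ratios have exact Poisson intervals and shares Wilson intervals, at 95%, on rounded counts. Named clusters were the pair and, by rule, the 1 most alike. In simulated data for SAM against the control (13060 clusters), only clusters above a minimum mean count were changed, so rare ones are not covered. The test called 49.3% of 67 clusters with a 1.5-fold change. It called 77.6% of 67 with a 2-fold change, 98.5% of 66 with a 4-fold change, and 12 unchanged ones. Alternatives were RLE factors, DESeq2 1.42.0, no filter, the compared groups alone, a replicate block, each library left out, Spearman's rho for likeness, and a pseudocount of 0.1 in place of 1 for log2 TPM.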

Additional observations from a re-analysis of the deposited data

Results flagged for a closer look

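The SAM-high cluster lay above the control mean in both SAM libraries and below it in both libraries of VP64 and of VPR, so these libraries lay on opposite sides of that mean. The log2 difference of SAM was 2.29 from VP64 and 2.19 from VPR. For the sum of the pair, the libraries of SAM and of VP64 lay on opposite sides of the control mean, with a log2 difference of 1.94. These differences were not tested, because the cluster was chosen for its level in SAM. Against the control, the log2 difference of the SAM-high cluster was -0.14 in VP64 (95% interval -0.39 to 0.12) and -0.04 in VPR (-0.29 to 0.21). That of the sum was -0.06 in VP64 (-0.29 to 0.16), and all 3 intervals include 0.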

How the results depend on the processing

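In all 15 alternatives run, the log2 difference of SAM from the control kept its direction for the SAM-high cluster and for the sum. The SAM-high cluster was chosen for its level in SAM and makes up most of the sum, so this direction follows from the choice. With 1 library left out, the difference ran from 2.02 to 2.27 for the SAM-high cluster and from 1.76 to 1.98 for the sum. Over the other alternatives it ran from 2.13 to 2.16 and from 1.86 to 1.88. Against the control, cluster 29064 was called in no alternative and kept its sign. Its log2 difference with 1 library left out ran from -0.41 to -0.00 in SAM and from 0.03 to 0.29 in VP64. For VPR the range was 0.15 to 0.33, and for Suntag 0.01 to 0.12. DESeq2 gave no adjusted p for it in VP64 and Suntag. Spearman's rho in place of Pearson's r, 0.44 against 0.98, put other clusters ahead of cluster 29286 as the most alike. A pseudocount of 0.1 TPM in place of 1 TPM moved the log2 difference in TPM from 2.15 to 2.16 for the SAM-high cluster and from -0.18 to -0.19 for cluster 29064.

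Counts of calls over all clusters, which serve as background, depended on the settings. They were 689 in SAM, 108 in VP64, 874 in VPR and 176 in Suntag. RLE factors gave 679 in SAM, 108 in VP64, 884 in VPR and 170 in Suntag. DESeq2 called 331 in SAM, 163 in VP64, 587 in VPR and 189 in Suntag. With no filter on low counts there were 1280, 533, 1388 and 590. Fits of the compared groups alone gave 1154 in SAM, 617 in VP64, 1177 in VPR and 24 in Suntag. With 1 library left out they ran from 60, without SAM replicate 1, to 1047 in SAM. In VPR the range was 143 to 1332, in Suntag 7 to 376, and in VP64 0 to 362. The causes were not tested. With the replicate number as a block the numbers were 553 in SAM, 68 in VP64, 764 in VPR and 108 in Suntag. Cluster 29064 was still not called with that block. Libraries share only a number: over the 10 pairs of groups, the correlation across clusters of replicate 1 minus replicate 2 ran from -0.06 to 0.08.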
